A study of Mus musculus with 12 samples.

Results

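The genes described here encode the respiratory chain and the ATP synthase of mitochondria. They were chosen by symbol from the protein-coding genes of the count table: nuclear genes whose symbol begins with Nduf, Sdh followed by a, b, c or d, Uqcr, Cox4 to Cox8 or Atp5, and the mitochondrially encoded genes whose symbol begins with mt-Nd, mt-Co, mt-Atp or mt-Cytb, with pseudogenes left out. The rule gave 113 of the 53801 genes in the table, 100 of them nuclear and 13 mitochondrially encoded. RNA-seq counts were available for eosinophils of 4 groups of mice with 3 libraries each, control bone marrow, Atg5-knockout bone marrow, control blood and Atg5-knockout blood. The knockout animals carried floxed Atg5 alleles (Atg5 flox/flox) with eoCre, a Cre recombinase knocked into the locus of eosinophil peroxidase (Epx tm1.1(cre)Jlee), and the control animals carried eoCre without the floxed alleles. All 4 groups also carried an Il5 transgene (NJ.1638) under the Cd3d promoter, so that every library comes from an Il5-driven eosinophilia. Ages are not given in the labels. Eosinophils were enriched by depletion of other cell types with labelled antibodies, and blood was first passed over Histopaque with lysis of erythrocytes in water.

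The respiratory chain moves electrons from NADH (complex I, the Nduf genes and the mt-Nd genes) and from succinate (complex II, the Sdh genes) through complex III (Uqcr genes, mt-Cytb) and cytochrome c to oxygen at complex IV (Cox genes, mt-Co genes). The proton gradient made on the way drives complex V, the ATP synthase (Atp5 genes, mt-Atp genes). Its subunits are made from both genomes, since hydrophobic parts of complexes I, III, IV and V are encoded by mitochondrial DNA and the others, complex II included, by the nucleus. Mature granulocytes, eosinophils among them, are known to hold fewer mitochondria than their proliferating precursors in the bone marrow.

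Total counts ran from 18885052 to 30270166 per library. Eosinophil marker genes took 8.04% to 10.3% of all counts in the bone marrow libraries but 1.80% to 4.05% in those of blood. Of these markers Prg2, a granule protein gene, had 4068451 counts in control bone marrow and 988631 in control blood. In knockouts it had 4477934 and 704234. The share thus follows the RNA of such genes and does not count cells. The paper reports a high purity of the eosinophils isolated from both tissues, judged on stained cells. In bone marrow 12 cell cycle genes took 0.229% to 0.319%, and in blood 0.00641% to 0.0186%. Control blood library 1 stood apart with 14.8% of its counts on 9 red cell marker genes, where the other 11 libraries had 0.140% to 1.44%. T cell markers took 0.02098% of the counts in Atg5-knockout blood library 1 and 0.01255% in control blood library 1, against 0.001056% to 0.003403% in the other blood libraries and 0.0006145% to 0.0008073% in bone marrow. In control blood 7 of 8 platelet markers were higher and 5 of 10 neutrophil markers lower than in bone marrow. Of all genes tested in controls, 16.2% were higher and 18% lower. In knockout blood 5 of 6 tested T cell markers were higher and 8 of 10 neutrophil markers lower, against 23.5% higher and 24.1% lower of all genes. The summed share of platelet markers was 0.03472%, 0.01031% and 0.01545% in control blood libraries 1 to 3, against 0.01676% to 0.02044% in control bone marrow. Only library 1 thus lay above bone marrow. In knockouts the share was lower in blood (0.006786% to 0.008146%) than in bone marrow (0.01913% to 0.02365%). The part of these markers in the results between tissues was not tested. The targeted gene Atg5 had 42.2, 44.8 and 41.4 CPM (counts relative to library size, scaled with TMM factors) in control bone marrow and 30.95, 32.0 and 34.5 CPM in knockout bone marrow, without overlap, but the difference did not pass (log2 fold change -0.44, SE 0.11, adjusted p 0.157, edgeR's quasi-likelihood test with Benjamini-Hochberg adjustment). In blood Atg5 had 44.0, 58.9 and 40.0 CPM in the controls and 35.97, 52.2 and 51.1 CPM in the knockouts, which overlapped. The table sums all exons of a gene, so a deleted exon cannot be seen in it. The paper examined Atg5 by qPCR and its protein by immunoblot in eosinophils of both tissues.

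Of the 100 nuclear genes, 94 had enough counts to be tested between the tissues. Cox7b2, Cox8b and Cox8c, isoforms of complex IV subunits, had 0 counts in the 12 libraries, which allows up to 0.0101 CPM (3 counts over all libraries). Ndufa4l2 had 1 count, Ndufb11b 18 and Cox4i2 75. Among the mitochondrial genes, mt-Atp8 had 35 counts and mt-Nd4l 32 and neither was tested, for which the nuclear copies described further down give the setting.

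Per length of transcript, nuclear subunits differed widely in level. Among the subunits tested between the tissues, the highest in control bone marrow were Cox6b1 with 954 ± 54.9 TPM (counts per length, scaled to the same sum in each library, mean ± SD, n = 3), Cox6a1 with 890 ± 85.8 TPM and Cox8a with 868 ± 60.5 TPM, all of complex IV. The order among these 3 does not exceed their spread. At the other end of the tested subunits were Ndufs1 with 16.4 ± 1.16 TPM, Ndufab1 with 9.70 ± 0.372 TPM and Ndufb2 with 6.22 ± 0.695 TPM, all of complex I. TPM here divides by all exon bases of a gene, 8086, 6883 and 5628 for these 3 genes, so that at the same count more annotated exon bases give a lower TPM. In complex II, the catalytic subunits Sdha and Sdhb had 98.7 and 95.8 TPM and the membrane anchors Sdhc and Sdhd 63.8 and 318 TPM.

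Together the 100 nuclear genes took 1.30% ± 0.121 (SD, n = 3) of all counts in control bone marrow, 1.26% ± 0.0822 in knockout bone marrow, 1.12% ± 0.234 in control blood and 1.14% ± 0.0795 in knockout blood. The 13 mitochondrial genes took 0.719% ± 0.0848, 0.745% ± 0.0724, 0.937% ± 0.168 and 1.02% ± 0.171 in the same order. The mitochondrial share was higher in each blood library than in each bone marrow library of the same genotype, although knockout blood library 2, at 0.826%, and knockout bone marrow library 2, at 0.812%, lay close together. The nuclear share overlapped between tissues in both genotypes, and the lowest value of all, 0.852%, was that of control blood library 1, the library rich in red cell RNA. In these bulk samples fewer cells of a type and less RNA per cell cannot be told apart.

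**Figure D1:**
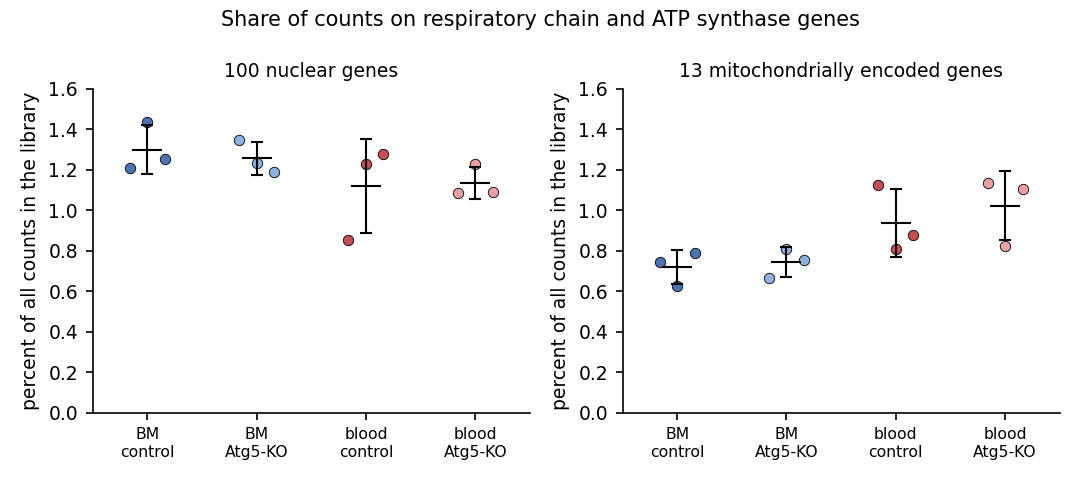
Percent of all counts in each library (y axis) on the 100 nuclear genes (left) and on the 13 mitochondrially encoded genes (right), by group on the x axis, where BM is bone marrow and KO knockout. Each point is 1 library and the bars are the mean ± SD of 3. Within each genotype blood sits above bone marrow on the right, while on the left control blood library 1 is the lowest point at 0.852%.

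The first question was how these genes differ between eosinophils of the blood and of the bone marrow, in each genotype. Few nuclear genes passed the test in controls. Of the 94 tested, 4 were higher and 7 lower in control blood, against 16.2% higher and 18% lower of all 13669 genes tested, and their median log2 fold change was 0.03 (all genes -0.0029). In the Atg5-knockout libraries 13 were higher and 17 lower, against 23.5% and 24.1% of 13853 genes, with a median of -0.03 (all genes -0.01). The sign was the same in both genotypes, whose libraries are separate, for 73 of the 94 (77.7%), against 85.5% of the 13406 genes tested in both. All mitochondrially encoded genes that passed were higher in blood, 5 of 11 tested in the controls with a median of 0.49 and 7 of 11 in the knockouts with a median of 0.67. Of these 11, mt-Co2, mt-Co3, mt-Atp6 and mt-Nd3 had few counts, as described further down, and over the other 7 genes 5 were higher in controls (median 0.61) and 6 in knockouts (median 0.74).

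These counts depended on single libraries and on the scaling. Without control blood library 1, the one rich in red cell RNA, 17 nuclear genes were higher and 7 lower in control blood, and without control blood library 2 or 3, 2 were higher. Leaving out any of the control bone marrow libraries left 0 or 1 nuclear gene higher, 2 or 3 lower and 0 mitochondrial genes. In the knockouts, 24 nuclear genes were higher without blood library 1, the library with the largest share on T cell markers, and 6 to 11 without any other library, and 7 or 8 were lower without bone marrow library 1 or 2. The mitochondrial count without a knockout library was 4 to 7. Scaling by library size alone, without TMM factors, moved the median of all genes to -0.31 in controls and -0.24 in knockouts. It gave 1 nuclear gene higher and 22 lower with a nuclear median of -0.28 and 0 mitochondrial genes in controls, and 6 higher, 30 lower, a nuclear median of -0.26 and 4 mitochondrial genes higher in knockouts. Relative to the median of all genes, the nuclear median was close to 0 under either scaling.

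**Figure D2:**
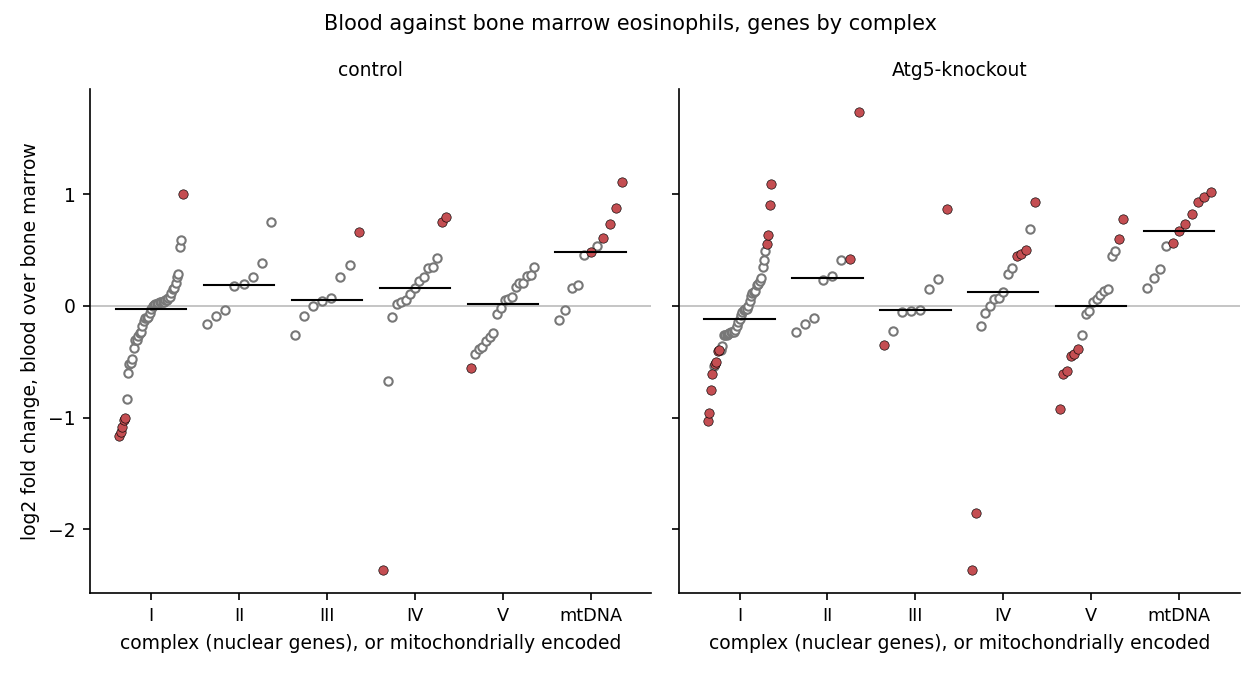
Log2 fold change of blood over bone marrow (y axis) for each tested gene, nuclear genes by complex and mitochondrially encoded genes apart (x axis), in controls (left) and Atg5-knockouts (right). Filled points passed at an adjusted p under 0.05 and horizontal lines are medians. Mitochondrially encoded genes lie mostly above 0, with medians of 0.49 and 0.67, and the lowest point in both panels is Cox6a2 at -2.36.

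Uqcrh, Ndufa6, Cox7a2l and Cox8a were higher in blood in both genotypes. Uqcrh, the hinge protein of complex III, had 301, 377 and 319 CPM in control bone marrow and 366, 545 and 653 CPM in control blood. Control blood library 1 fell within the range of bone marrow. In the knockouts it had 347, 249.7 and 319 CPM in bone marrow and 455, 603 and 545 CPM in blood, without overlap. The log2 fold changes were 0.66 (SE 0.22, adjusted p 0.0484) and 0.87 (SE 0.17, adjusted p 0.00254) by edgeR's quasi-likelihood test with Benjamini-Hochberg adjustment. Ndufa6, an accessory subunit of complex I, had 117, 146 and 112 CPM in control bone marrow and 164, 268 and 317 CPM in control blood. In knockouts it had 143, 129 and 131 CPM against 191, 341 and 290.1 CPM, so all blood libraries lay above all bone marrow libraries in both genotypes. The log2 fold changes were 1.01 and 1.09.

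Cox7a2l, which binds complexes III and IV together in supercomplexes, had 165, 192 and 176 CPM in control bone marrow and 207, 328 and 357 CPM in control blood, and 174, 167 and 187 CPM against 246, 359.8 and 359.6 CPM in knockouts. Cox8a, the widely made form of the smallest complex IV subunit, had 214, 193 and 214 CPM against 284, 358 and 429 CPM in controls, and 246, 229 and 233 CPM against 313, 337 and 275 CPM in knockouts. Neither gene overlapped between tissues in either genotype. For all 4 genes, the lowest control blood library was library 1, and the log2 fold changes of Cox7a2l (0.76 and 0.94) and Cox8a (0.80 and 0.45) had SEs of 0.12 to 0.21.

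Promoters are shown for these 4 genes because they are the nuclear members that were higher in blood in both genotypes. The sequences are from RefSeq on GRCm38.p6, from 100 bases before to 50 bases after the annotated start, all on the minus strand, and capitals mark matches to a motif. The motifs searched on both strands were that of NRF1, spelled GCGCNTGCG or, on the other strand, CGCANGCGC, that of ETS factors such as GABP, spelled CCGGAAG or, on the other strand, CTTCCGG, and that of YY1, spelled AAGATGGCG or, on the other strand, CGCCATCTT. The motifs share no stretch with each other in these windows.
Uqcrh, chr4:116075021-116075170: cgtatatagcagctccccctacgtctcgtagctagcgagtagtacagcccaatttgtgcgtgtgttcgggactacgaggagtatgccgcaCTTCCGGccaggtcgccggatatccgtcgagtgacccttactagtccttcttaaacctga
Ndufa6, chr15:82354242-82354391: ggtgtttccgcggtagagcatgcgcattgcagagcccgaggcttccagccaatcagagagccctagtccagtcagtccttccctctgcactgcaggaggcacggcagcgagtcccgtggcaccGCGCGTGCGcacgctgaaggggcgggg
Cox7a2l, chr17:83514284-83514433: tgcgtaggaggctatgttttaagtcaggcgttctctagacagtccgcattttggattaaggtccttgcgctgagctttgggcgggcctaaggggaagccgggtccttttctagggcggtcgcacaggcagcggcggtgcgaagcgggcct
Cox8a, chr19:7217567-7217716: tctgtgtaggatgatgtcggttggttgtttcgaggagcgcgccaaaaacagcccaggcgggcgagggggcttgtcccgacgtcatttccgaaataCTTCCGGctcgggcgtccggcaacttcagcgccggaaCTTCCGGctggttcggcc
The window of Uqcrh held an ETS match, that of Ndufa6 an NRF1 match, that of Cox8a a pair of ETS matches and that of Cox7a2l no match to these letters. Of the 100 nuclear genes, 82 had a promoter in the table. Over the full windows of 250 bases before to 50 after the start, 31.7% of the 82 held the NRF1 letters against 6.31% of all 32851 promoters of the same length, 25.6% held the ETS letters against 8.86%, and 8.54% the YY1 letters against 1.40%. A match is a description of the letters and not a bound site.

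Cox6a2, Ndufaf6, Ndufaf2, Ndufab1 and Atp5if1 were lower in blood in both genotypes. Cox6a2, the isoform of a complex IV subunit known from heart and skeletal muscle, had 9.06, 10.7 and 8.05 CPM in control bone marrow and 2.66, 1.81 and 0.880 CPM in control blood. In knockouts it had 7.61, 6.71 and 5.77 CPM against 1.47, 1.89 and 0.348 CPM. The tissues did not overlap, and the log2 fold change was -2.36 in both genotypes (SE 0.41 and 0.49, adjusted p 0.00282 and 0.00396, edgeR's quasi-likelihood test with Benjamini-Hochberg adjustment). Ndufaf6 and Ndufaf2 are assembly factors of complex I. Ndufaf6 was low everywhere, with 2.92 to 4.51 CPM over the 6 bone marrow libraries and 1.07 to 2.199 CPM over the 6 blood libraries. Ndufaf2 ranged from 7.30 to 9.55 CPM in bone marrow and from 3.26 to 5.43 CPM in blood. 65.7% of its exon bases overlap another gene, so its reads cannot be wholly assigned.

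Ndufab1, the mitochondrial acyl carrier protein and an accessory subunit of complex I, had 27.8, 30.2 and 29.8 CPM in control bone marrow and 8.52, 18.3 and 16.6 CPM in control blood, with library 1 lowest. Its knockout values were 25.8, 31.4 and 25.1 CPM against 12.4, 13.9 and 20.4 CPM. Atp5if1, which inhibits ATP hydrolysis by complex V, had 70.2, 82.7 and 72.5 CPM against 40.3, 54.6 and 57.3 CPM in controls, and 91.1, 85.5 and 73.9 CPM against 32.6, 45.0 and 48.7 CPM in knockouts. Neither gene overlapped between tissues. The log2 fold changes were -1.003 and -0.75 for Ndufab1 and -0.56 and -0.92 for Atp5if1, of whose exon bases 33.7% overlap another gene. Of the Ndufab1 transcript, 36.7% lies in a copy on chromosome 7 at 99.4% identity. In all, 13 nuclear members have over 20% of their transcript in such a copy, Atp5mc1 (85.8%) and Cox7c (74.1%) among them, and reads that map to several places were not counted in the deposited table.

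**Figure D3:**
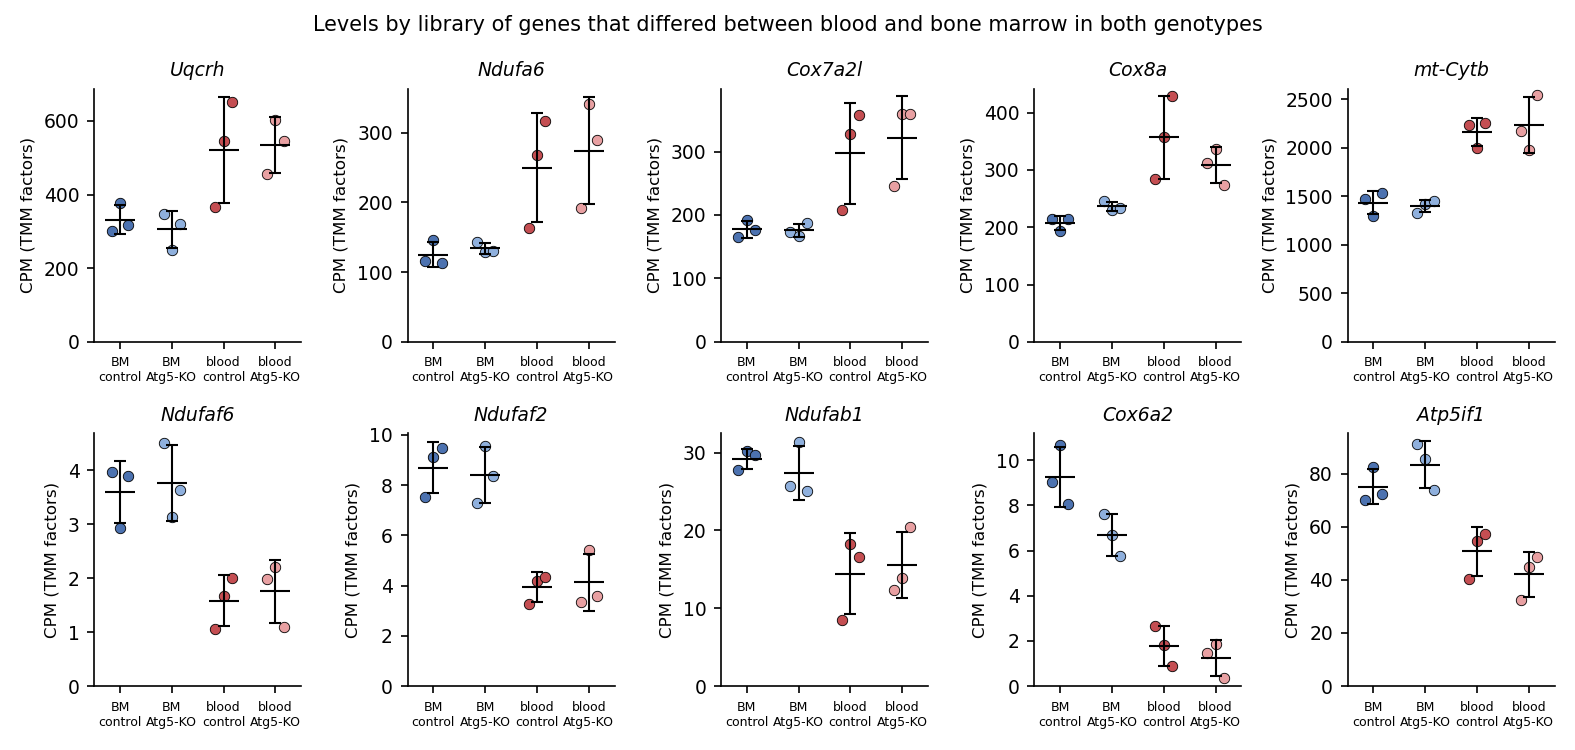
CPM with TMM factors (y axis, from 0) in each library for 5 genes that were higher (upper panels) and 5 that were lower (lower panels) in blood in both genotypes, by group on the x axis. Points are libraries and bars are mean ± SD of 3. The 1 overlap between tissues of a genotype is Uqcrh in the controls, where blood library 1 had 366 CPM and bone marrow library 2 had 377 CPM.

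By role, 3 of the 7 nuclear genes lower in control blood were assembly factors of complex I. Of the 8 such factors 3 fell (Ndufaf6, Ndufaf2 and Ndufaf4), 0 rose and 7 were negative, with a median of -0.60, against 18% lower of all genes. The count is small, and leaving out a control bone marrow library left 2 or 3 nuclear genes lower in all. Ndufaf6 and Ndufaf2 were also lower in knockout blood, whereas Ndufaf4 did not pass there. Ndufaf4 had 8.74, 9.29 and 11.5 CPM in control bone marrow and 6.51, 4.28 and 3.57 CPM in control blood. The 7 core subunits of complex I had a median of -0.07 with 0 called, and of its 30 accessory subunits 1 was higher and 2 were lower. Complex II had 0 called of 8, complex III 1 higher of 8, complex IV 2 higher and 1 lower of 15, and complex V 0 higher and 1 lower of 18, its inhibitor.

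In the knockout libraries complex I gave 4 higher and 8 lower of 45 (8.89% and 17.8%), which is below the 23.5% and 24.1% of all genes. All 7 core subunits were negative there, with a median of -0.23, and Ndufv1 and Ndufs1, which carry the flavin and iron-sulfur clusters that take electrons from NADH, fell. Ndufv1 had 80.0, 82.1 and 73.8 CPM in knockout bone marrow and 56.2, 52.5 and 48.6 CPM in blood, and Ndufs1 65.3, 66.3 and 67.3 CPM against 49.6, 46.1 and 48.5 CPM. The log2 fold changes were -0.52 and -0.40. Complex V gave 2 higher and 6 lower of 18 (11.1% and 33.3%). Its F1 subunits alpha and beta, Atp5f1a and Atp5f1b, which form the catalytic head, had 712, 730.3 and 700.0 CPM and 806, 829.9 and 779 CPM in knockout bone marrow and 458, 440.4 and 466 CPM and 535, 508 and 474 CPM in knockout blood. Both fell by about the same amount, -0.59 (SE 0.11) and -0.61 (SE 0.12), without overlap between tissues. Uqcrc1, a large subunit of complex III, fell with -0.35. Ndufb2, the tested subunit of lowest TPM, also fell, with 16.2, 14.8 and 14.1 CPM against 8.33, 12.5 and 7.41 CPM.

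The 13 nuclear genes higher in knockout blood included 2 assembly factors of complex II, Sdhaf1 and Sdhaf2. Ndufa7, an accessory subunit of complex I, had 95.8, 74.1 and 80.1 CPM in knockout bone marrow and 126, 167 and 155 CPM in blood, a log2 fold change of 0.90 (SE 0.15). Atp5mk, a small membrane subunit of complex V, had 80.9, 66.9 and 71.1 CPM against 87.2, 139 and 135 CPM (0.78, SE 0.18). Neither overlapped, though blood library 1 lay close to bone marrow. Sdhaf1, an assembly factor that helps to insert iron-sulfur clusters into complex II, had the largest log2 fold change of the nuclear genes that rose, 1.74 (SE 0.30), with 4.34, 3.23 and 2.81 CPM in bone marrow and 8.20, 10.2 and 14.8 CPM in blood. In controls it had 3.44, 6.45 and 4.397 CPM against 2.01, 8.24 and 13.8 CPM, which overlapped. 69.6% of its exon bases lie in another gene. Whether the tissue effect differed between genotypes was tested as an interaction, which 0.0% of 14712 genes passed by edgeR's quasi-likelihood test, with 740 genes at an unadjusted p under 0.05, 6 nuclear and 1 mitochondrial gene of the chain among them. DESeq2 called 3 genes with a positive and 11 with a negative interaction and limma-voom 0, and none was a member. A count that differs between genotypes is therefore not shown to be a difference in effect.

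Exon length moved with the direction in the knockouts. The 13 nuclear genes higher in knockout blood had a median exon length of 1153 bases and the 17 lower genes 2521 bases. Across the 94 genes, Spearman's rho of exon length and log2 fold change was -0.37 in knockouts and -0.22 in controls, where all genes gave -0.10 and -0.04. Between knockout and control bone marrow it was 0.40 over the nuclear genes and 0.10 over all genes. Genes are not independent replicates, and the part of transcript length in these differences was not tested.

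Isoforms made in few tissues gave small shares of their pairs. Cox6a2 made up 3.37% ± 0.187 (SD, n = 3) of the TPM of Cox6a1 and Cox6a2 in control bone marrow and 0.731% ± 0.576 in control blood, and 2.63% ± 0.201 and 0.523% ± 0.332 in knockouts. Cox6b2, known from testis, made up 2.03% ± 0.276, 1.20% ± 1.07, 2.73% ± 0.193 and 0.564% ± 0.201 of its pair with Cox6b1 in the same order. Its level in control blood was carried by library 1, which had 9.89 CPM where libraries 2 and 3 had 3.04 and 5.04 CPM, and control bone marrow had 7.94, 11.8 and 9.27 CPM. In knockouts it fell from 13.5, 9.78 and 10.7 CPM to 2.86, 2.199 and 3.93 CPM (log2 fold change -1.85, SE 0.28, adjusted p 0.000821, edgeR's quasi-likelihood test with Benjamini-Hochberg adjustment). Cox7a1, the heart and muscle form, took larger shares of its pair with Cox7a2, 6.31% ± 0.686 in control bone marrow, 8.30% ± 0.446 in control blood, 5.93% ± 0.576 in knockout bone marrow and 7.72% ± 1.34 in knockout blood. Cox4i2, the form of Cox4 known from lung, stayed at a mean of 0.150% or less of its pair with Cox4i1 in all 4 groups.

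The mitochondrially encoded genes divided into 7 with many counts and 6 with few. mt-Co1, mt-Cytb, mt-Nd1, mt-Nd6, mt-Nd4, mt-Nd2 and mt-Nd5 had 56100 to 674000 counts per kilobase of transcript over the 12 libraries. mt-Co2, mt-Co3, mt-Atp6, mt-Nd3, mt-Atp8 and mt-Nd4l had 108 to 3840. The 6 low genes are those whose transcript lies wholly, or for mt-Nd3 over 99.1% of its bases, in a nuclear copy of mitochondrial DNA on chromosome 1, at 98% identity or more over at least 100 bases of GRCm39. mt-Nd4 is covered over its first 876 of 1378 bases and mt-Co1 over 483 of 1545, and the other 5 have no such match. Reads that map to several places were not counted in the deposited table.

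The table also holds genes annotated on that copy, between 24611535 and 24616197 of chromosome 1 on GRCm38. A stretch of mt-Co3 and of its copy Gm28437 is shown because the letters are the same, so that a read within it names neither gene. It runs from base 31 to base 120 of each transcript (GENCODE M39).
mt-Co3: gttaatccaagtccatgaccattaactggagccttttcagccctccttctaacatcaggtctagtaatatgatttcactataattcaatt
Gm28437: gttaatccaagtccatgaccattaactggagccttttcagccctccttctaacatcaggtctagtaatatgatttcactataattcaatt
Over the 12 libraries mt-Co3 had 563 counts and Gm28437 had 110000. mt-Co2 had 2627 and Gm28661 126770, mt-Atp6 374 and Atp6-ps 69942, mt-Nd3 141 and Gm28438 12103, and mt-Nd4l 32 and Gm10222 1967, so that 98% to 99.5% of the counts of each such pair stood on the copy. Of mt-Co1 with Gm29216 it was 9.24%, and of mt-Nd4 with Gm28439 3.64%. What places these reads on one or the other locus was not tested, and levels of the 6 low genes are not read as levels of their mitochondrial RNA.

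**Figure D4:**
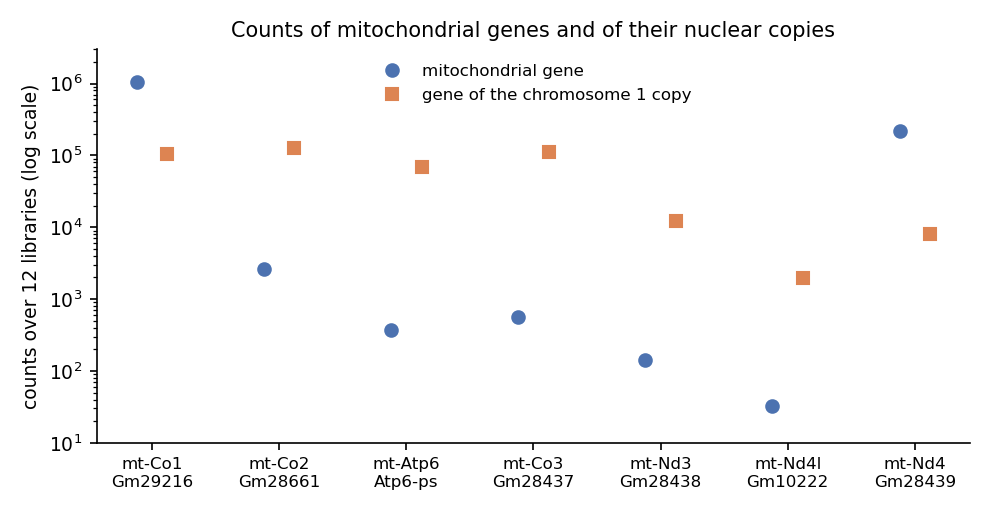
Counts over the 12 libraries (y axis, log scale) of 7 mitochondrially encoded genes (circles) and of the gene annotated on the chromosome 1 copy of each (squares). In 5 pairs the copy lies above the mitochondrial gene, as with 110000 counts against 563 for mt-Co3, and in mt-Co1 and mt-Nd4 it lies below.

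Of the 7 genes with many counts, mt-Cytb, mt-Co1, mt-Nd2 and mt-Nd4 were higher in blood in both genotypes, each without overlap between tissues. mt-Cytb, the core of complex III, had 1471, 1300 and 1536 CPM in control bone marrow and 2234, 2003 and 2257 CPM in control blood, and 1334, 1421 and 1451 CPM against 2175, 1980 and 2546 CPM in knockouts. Its log2 fold changes were 0.61 (SE 0.16, adjusted p 0.0199) and 0.74 (SE 0.14, adjusted p 0.00288) by edgeR's quasi-likelihood test with Benjamini-Hochberg adjustment. mt-Co1, the catalytic subunit of complex IV, had 3106, 1922 and 2740 CPM against 6213, 3738 and 4090 CPM in controls. In knockouts it had 2600, 3144 and 3189 CPM against 4631, 3568 and 4376 CPM. The log2 fold changes of mt-Co1 were 0.88 and 0.56, and those of mt-Nd4, a proton-pumping subunit of complex I, 0.49 and 1.02.

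mt-Nd2 had 372, 322 and 426 CPM in control bone marrow and 778, 480.0 and 580.3 CPM in control blood, with log2 fold changes of 0.74 in controls and 0.98 in knockouts. mt-Nd5 had 289, 155 and 261 CPM in control bone marrow and 795, 328 and 365 CPM in control blood (1.11, SE 0.37). Control blood library 1 was the highest for mt-Co1, mt-Nd2 and mt-Nd5, whereas it was the lowest of the control blood libraries for Uqcrh, Ndufa6, Cox7a2l and Cox8a. In knockouts mt-Nd5 had 262, 343 and 281 CPM against 521, 310.3 and 394 CPM, which overlapped (0.54, adjusted p 0.0512). mt-Nd1 and mt-Nd6 passed in knockouts, at 0.67 and 0.82, and had 0.46 and 0.19 in controls. mt-Nd6 is encoded on the other strand from the rest, and the counting used no strand.

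Adding the counts of the chromosome 1 genes to their mitochondrial counterparts, an alternative chosen after seeing the data, gave 6 of 12 genes higher in control blood and 10 of 12 in knockout blood, with 0 lower. mt-Atp6 turned from -0.13 (SE 0.46) alone to 0.53 (adjusted p 0.0335) summed in controls, and in knockouts mt-Nd4l and mt-Nd5 were the genes that did not pass. The share of counts on the mitochondrial genes and copies together was 0.773% to 0.933% in bone marrow and 0.959% to 1.38% in blood, with no overlap. The mitochondrial rRNAs, which are not members, had 488 to 585 CPM (mt-Rnr1) and 802 to 1054 CPM (mt-Rnr2) in bone marrow, and 963 to 2299 CPM and 2304 to 4493 CPM in blood. The paper names a library kit made for mRNA, so these counts are not read as levels of the rRNAs.

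The second question was whether loss of Atg5, a gene needed to form autophagosomes, went with a change of these genes in either tissue. In bone marrow 2 of 95 nuclear genes were lower in the knockouts and 0 higher, against 0.203% lower and 0.145% higher of all 13781 genes. Their median log2 fold change was -0.09 (all genes 0.0029) and 70 of 95 were negative. By limma-voom 70 of 95 were negative too, against 6627 of all 13781 genes. Between libraries of a group, the median log2 CPM of these genes had a pooled SD of 0.113. Without control bone marrow library 2 the median log2 fold change was 0.01, so the shift does not exceed the spread between libraries. The log2 fold changes moved with exon length, as given above, and the part of length was not tested. The 2 genes were Ndufa3 and Ndufa12, both accessory subunits of complex I. The 11 tested mitochondrial genes had a median of -0.07 with 0 called by edgeR, DESeq2 or limma-voom and 0 at an unadjusted p under 0.05 in edgeR, but without control bone marrow library 1 there were 2 lower. These comparisons use the same bone marrow libraries as those between tissues. All 9 red cell markers were positive in knockout bone marrow, with a median of 1.32 and 1 of them called, and their part in the differences of Ndufa3 and Ndufa12 was not tested.

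Ndufa3 (chr7:3617373-3620327 on GRCm38) had 158, 247 and 174 CPM in control bone marrow and 112, 79.1 and 103 CPM in knockout bone marrow. The groups did not overlap, with control library 2 the highest, and the log2 fold change was -1.03 (SE 0.19, adjusted p 0.0358, edgeR's quasi-likelihood test with Benjamini-Hochberg adjustment). The call was lost in each fit without a knockout library and without control library 3, with adjusted p of 0.0837 to 0.172 by the same edgeR test, and in the fit with the replicate block, with 0.143, and in the fit of all 12 libraries, with 0.243. In blood it had 156, 198 and 238 CPM in controls and 119, 162 and 132 CPM in knockouts, which overlapped (-0.49, adjusted p 1.0). It was 1 of the genes that were higher in knockout blood than in knockout bone marrow (0.55).

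Ndufa12 (chr10:94198955-94221443 on GRCm38) had 26.5, 31.4 and 27.4 CPM in control bone marrow and 17.7, 17.97 and 14.8 CPM in knockout bone marrow, without overlap (log2 fold change -0.80, SE 0.13, adjusted p 0.0236, edgeR's quasi-likelihood test with Benjamini-Hochberg adjustment). The call stood without control library 1 and was lost without any other library (adjusted p 0.0501 to 0.106 by the same edgeR test), with the replicate block (0.0783) and in the fit of all 12 libraries (0.243). The table also holds Ndufa12-ps, a processed copy on chromosome 5 (chr5:130188395-130188796 on GRCm38). The copy went the other way, from 10.2, 10.98 and 10.9 CPM in controls to 25.3, 22.0 and 21.4 CPM in knockouts (1.06, SE 0.13, adjusted p 0.00347). All 402 bases of the copy align to bases 127 to 528 of the Ndufa12 transcript, which lie in its coding part, with 2 mismatches and no gap. The stretch from base 127 to base 276 of the transcript is shown because it holds 1 of the 2 differences, in capitals, by which reads could be told apart.
Ndufa12: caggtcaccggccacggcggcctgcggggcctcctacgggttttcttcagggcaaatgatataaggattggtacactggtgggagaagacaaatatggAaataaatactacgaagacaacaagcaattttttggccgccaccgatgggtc
Ndufa12-ps: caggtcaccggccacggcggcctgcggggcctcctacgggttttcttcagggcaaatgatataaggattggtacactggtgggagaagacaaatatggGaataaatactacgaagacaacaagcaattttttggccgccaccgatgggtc

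The 2 counts summed did not differ between genotypes beyond their spread in bone marrow. The sum was 39.11 ± 2.97 CPM (SD, n = 3) in controls and 39.71 ± 3.38 CPM in knockouts, a log2 fold change of -0.02 with an SE of 0.12. The copy took 27.4% ± 1.31 of the sum in control bone marrow and 57.7% ± 2.31 in knockout bone marrow, and 29.5% ± 3.08 and 46.5% ± 6.46 in control and knockout blood. Within blood Ndufa12 had 12.7, 14.5 and 12.8 CPM in controls and 12.4, 15.9 and 11.9 CPM in knockouts, which overlapped, and Ndufa12-ps had 4.44, 6.39 and 5.97 CPM against 11.2, 10.4 and 13.1 CPM, which did not (1.08, SE 0.27, adjusted p 1 by edgeR's quasi-likelihood test). Ndufa12 was 1 of the 7 genes lower in control blood (-1.08, SE 0.18), and the sum was lower in blood in both genotypes (-1.03 in controls and -0.60 in knockouts, adjusted p 0.00207 and 0.0047 by edgeR). Whether the reads, the loci or the transcripts differ between the genotypes was not tested. In bone marrow 20 genes were called higher and 28 lower in knockouts. Of the other genes called there, 8 lie on chromosome 10 with Ndufa12, the nearest of them Fgd6 at 0.163 Mb. On chromosome 7 with Ndufa3 lie 11, the nearest of them Pira1 at 0.114 Mb. The share of all tested genes on these chromosomes was not determined, so no clustering is read from these counts.

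**Figure D5:**
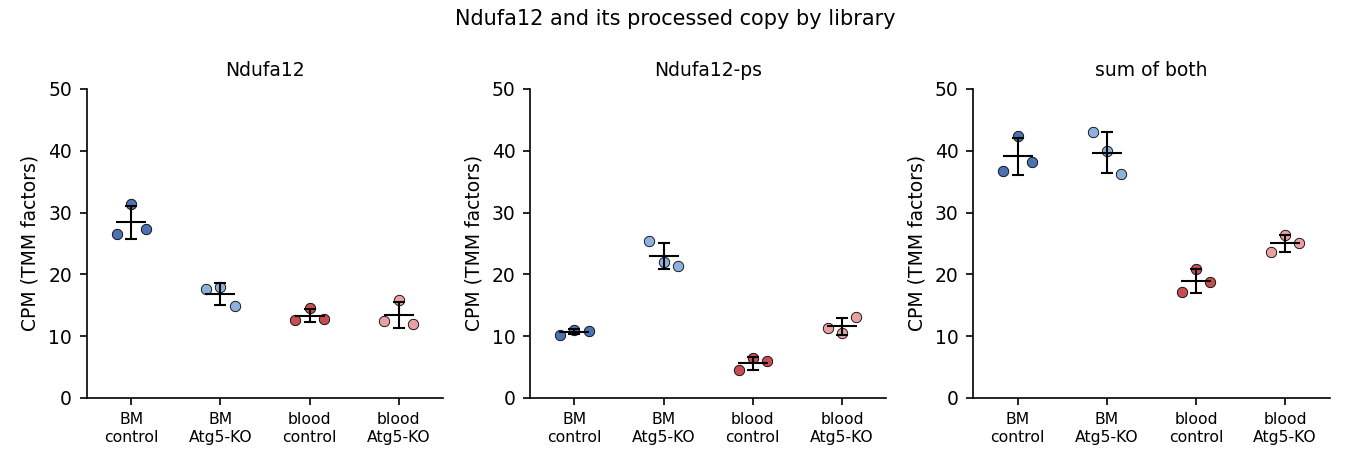
CPM with TMM factors (y axis, from 0) of Ndufa12, of its processed copy Ndufa12-ps and of their sum in each library, by group on the x axis, with points for libraries and bars for mean ± SD of 3. In bone marrow the gene is lower and the copy higher in knockouts, and the sums lie at 39.11 and 39.71 CPM.

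In blood 0 of 94 nuclear and 0 of 11 mitochondrial genes passed between genotypes by edgeR's quasi-likelihood test, and 0 by DESeq2 and by limma-voom, with 1 nuclear gene, Ndufa3, at an unadjusted p under 0.05. Of all 13460 genes 0.0371% were higher and 0.0% lower. The nuclear median was -0.07 (all genes 0.0062) and the mitochondrial median 0.15. Spread was wider here, with a biological coefficient of variation of 0.365 against 0.146 in bone marrow, and control blood library 1 with its red cell RNA is 1 of the 3 controls.

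Other mitochondrial genes gave the setting for the comparison between tissues. These lists were written with earlier results known and are described only by counts, to be read against the 16.2% higher and 18% lower of all genes in control blood and the 23.5% and 24.1% in knockout blood. Of 77 tested mitochondrial ribosomal proteins 26 were lower and 1 higher in control blood, with a median of -0.37, and 35 were lower and 3 higher in knockout blood, with a median of -0.41. Mrps22, of the small subunit, fell by 2.16 and 1.81 on the log2 scale. Of 28 genes of mitochondrial DNA maintenance and transcription 8 were lower and 0 higher in controls (median -0.43) and 13 lower and 1 higher in knockouts (median -0.47). Among them were Fastkd3, an RNA-binding regulator of mitochondrial transcripts, with -2.58 and -2.54, and the helicase Twnk, with -1.35 in controls. Tfam, which packages and transcribes mitochondrial DNA, had -0.45 in both genotypes and passed in knockouts (adjusted p 0.02, edgeR's quasi-likelihood test) and not in controls (0.16). Over the same contrast, the mitochondrially encoded genes had medians of 0.49 and 0.67.

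Of 35 assembly factors outside the symbol rule 12 were lower and 1 higher in control blood (median -0.42), and 12 were lower and 4 higher in knockout blood (median -0.38). Taco1, which activates translation of mt-Co1, had -2.63 in controls, and Tmem126b, needed to assemble the membrane arm of complex I, -1.70 and -2.05. Cox17, a copper chaperone of complex IV, and Cox16, which helps to assemble it, rose in knockout blood by 1.94 and 1.46. Cytochrome c and coenzyme Q genes gave 4 lower and 1 higher of 16 in controls (median -0.40) and 7 lower and 0 higher in knockouts (median -0.59). Cycs, cytochrome c itself, fell with -0.74 and -0.90, and Cyc1, the cytochrome c1 of complex III whose symbol the rule does not reach, with -0.44 and -0.86. Levels of Cycs were 44.4 to 50.5 CPM over the bone marrow libraries and 20.4 to 34.2 CPM over the blood libraries.

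Of 18 genes of the TCA cycle 5 were lower and 2 higher in controls (median 0.05) and 5 lower and 1 higher in knockouts (median -0.06), the latter 27.8% and 5.56% and so with the share of lower genes near that of all genes, with Idh2, the mitochondrial NADP-dependent isocitrate dehydrogenase, at -1.39 and -1.65. In complex II, which the cycle shares with the respiratory chain, Sdha, Sdhb, Sdhc and Sdhd did not pass in any comparison. Of 25 genes of the outer membrane, carriers and protein import 10 were lower and 0 higher in controls (median -0.29) and 12 lower and 2 higher in knockouts (median -0.36), with the chaperonin Hspd1 at -1.38 in controls. Mitophagy receptors and kinases gave 5 higher and 1 lower of 17 in controls (median 0.23, 10 positive and 7 negative) and 8 higher and 3 lower in knockouts (median 0.30, 9 positive and 8 negative). Pink1, the kinase that marks damaged mitochondria, rose by 1.09 and 0.98. Of 12 regulators of nuclear respiratory genes 2 were lower and 0 higher in controls and 3 lower and 2 higher in knockouts. The shares of lower genes were thus near those of all genes. Pprc1, a coactivator, had -1.12 and -1.19, and Gabpb1, a subunit of the ETS factor GABP, had -1.04 in controls. The 2 higher in knockouts were Myc and Max, with 0.96 and 0.78. Ppargc1a had at most 11 counts in a group and was not tested. Between genotypes none of the genes of these lists passed in either tissue by edgeR's quasi-likelihood test.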

How the data were processed

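Raw featureCounts counts per gene were deposited by the authors for 12 libraries, without normalization. Per the submitters' notes and the file header, reads were aligned with HISAT2 2.2.1 and counted with featureCounts 2.0.1 on the annotation of Ensembl release 92 on GRCm38, without a strand option and without reads that map to several places. The Methods name a GRCm39 annotation instead, and coordinates are given as in the table. The authors used DESeq2 1.32.0 in R 4.1.0, whose output was not used.

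Symbols came from GENCODE M39, which matched 49674 of 53801 identifiers, of which 26487 had a count. Counts were fitted for each comparison on its 6 libraries with edgeR 4.0.16 in R 4.3.3 (TMM factors, filterByExpr with a minimum count of 10 and a total of 15, prior count 0.125, quasi-likelihood test, Benjamini-Hochberg adjustment over all genes tested). A call needed an adjusted p below 0.05. The interaction was fitted on all 12 libraries. CPM carry TMM factors, and TPM divide counts by the table's exon length. Copies were sought with BLAST 2.17.0. The tests were run on simulated data first. Alternatives were DESeq2 1.42.0, limma-voom (limma 3.58.1), edgeR on 12 libraries, RLE factors, library size alone, tables without mitochondrial or red cell genes, no filter or 1 CPM in 3 libraries, a log2 fold change beyond 2, the replicate block and each library left out. Summed counts of gene and copy, and leaving out both blood libraries numbered 1, were added after seeing the data.

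The members and the gene lists were chosen with earlier results of these data known. Genes were named by rule: all mitochondrial members, the 6 nuclear members of largest fold change called in each direction and comparison, isoform pairs, Sdh subunits, the 3 subunits of highest and of lowest TPM, and the 3 genes of lowest p in each list, of which the text gives some. Genes outside this rule were named after their values were seen. The labels number the replicates 1 to 3 without saying what a number shares. In blood, same-numbered control and knockout libraries deviated together (correlations 0.498, 0.207 and 0.297). That would go with a pairing, but the correlations do not show what the libraries share. The replicate block changed no call of a member there. Nothing says that replicates came from separate animals, so p-values measure the spread between these libraries. The limit given for genes without a count covers counting error only, whereas SDs and SEs reflect the spread between these libraries.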

Additional observations from a re-analysis of the deposited data

How the results depend on the processing

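The 1 value that changed sign with a call was that of mt-Atp6, which turned from -0.13 to 0.53 in blood against bone marrow of controls when its counts were summed with those of Atp6-ps. Over single genes and settings other than leaving out a library, 1544 values kept their direction and side of the threshold. A call was lost by 35 and gained by 16, and 50 changed sign without a call in either fit. Without a single library, 757 were kept, 93 lost and 13 gained a call, and 103 changed sign without a call in either fit. A further requirement of a log2 fold change beyond 2 left 0 nuclear genes higher, 1 lower and 0 mitochondrial genes in either tissue comparison, and 0 in knockout against control bone marrow. Library size alone gave 1 nuclear gene higher, 22 lower (median -0.28) and 0 mitochondrial in controls, and 6 higher, 30 lower (median -0.26) and 4 mitochondrial in knockouts. Without a filter 3 mitochondrial genes were higher in control blood. The fit of 12 libraries gave 7 nuclear genes higher in knockout blood and 0 lower in knockout bone marrow. The cause was not tested.

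In bone marrow the replicate block gave 0 called. Same-numbered libraries there correlated at -0.152, -0.109 and 0.00318 and so showed no pairing, as between tissues (-0.104 to 0.124). The block changed no other count of calls by over 1.5 times. In blood it gave 0 nuclear and 0 mitochondrial genes, with medians of -0.04 and 0.13.

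Leaving out each library in turn gave, for blood against bone marrow, 0 to 17 nuclear genes higher, 2 to 7 lower (median -0.09 to 0.18) and 0 to 4 mitochondrial genes higher (median 0.42 to 0.57) in controls, and 6 to 24 higher, 7 to 17 lower (median -0.09 to 0.07) and 4 to 7 mitochondrial genes (median 0.53 to 0.82) in knockouts. For knockouts against controls it gave 0 to 2 nuclear genes lower in bone marrow (median -0.16 to 0.01) and 0 to 2 mitochondrial genes lower (median -0.15 to 0.02), the 2 of them without control bone marrow library 1, and 0 in blood (medians -0.22 to 0.03 and -0.05 to 0.21). Without both blood libraries numbered 1, a setting added after seeing the data, 0 were called in blood, with a nuclear median of -0.15. Control blood library 1, with 18885052 counts of which 14.8% were red cell markers, had the least depth for the nuclear genes, with 160875 counts. For the mitochondrial genes control bone marrow library 2 had the least, with 150450 counts.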
